A study of Arabidopsis thaliana with 9 samples.

Results

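The 3 genes described here encode the phosphoethanolamine N-methyltransferase family of Arabidopsis thaliana, whose members need not share every step. The genes are XPL1 (AT3G18000, named NMT1 in the authors' deposited table), NMT2 (AT1G48600, named PMEAMT by RefSeq) and AT1G73600, here called NMT3. They were chosen by locus identifier, as XPL1 and its 2 homologues, out of 31124 loci in the deposited expression table, and all 3 are present in it. The choice was made with the difference of XPL1 between genotypes already known, so the levels of the 3 genes are given as a description.

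RNA had been sequenced from the oscillation zone of the root, a region behind the root tip in which the response to the hormone auxin rises and falls periodically and the sites of future lateral roots are set. The groups were potent, a line that the series title pairs with the auxin response repressor gene IAA18, arf7, a line named for ARF7, which encodes a transcription factor of the auxin response, and Control, wild type of ecotype Col0 collected at minimum oscillation, with 3 independent samples per group. Roots in every group were grown on medium with 1% sucrose under 16 h of light and 8 h of dark, DR5::Luciferase, a luminescent reporter of auxin response, was followed, and the zones were dissected at 7 dpi. The sources used here do not give the alleles, the oscillation phase of the potent and arf7 samples or the number of roots per sample, so genotype and phase cannot be told apart. The deposited table holds 1 value per locus and genotype, taken as FPKM (fragment counts scaled by transcript length and by the number of mapped fragments), without the spread between samples and without the depth.

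Enzymes of this family add methyl groups from S-adenosylmethionine to phosphoethanolamine in successive steps, of which the first commits it to phosphocholine. The members need not share every step, and the phosphocholine formed is the head group of phosphatidylcholine, the main membrane phospholipid outside plastids. In Arabidopsis, the xipotl mutants of XPL1 have short roots and dying root epidermal cells, and NMT2 and NMT3 partly overlap with XPL1 in function. Translation of XPL1 is held down when choline or phosphocholine is plentiful through a small upstream open reading frame (uORF) in its messenger RNA.

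The gene models were compared first, because reads of close homologues can be assigned to the wrong gene. In the RefSeq annotation of assembly TAIR10.1, XPL1 lies at chr3:6154363-6157552, NMT2 at chr1:17965871-17969354 and NMT3 at chr1:27669152-27673572, each on the plus strand. The submitters' processing notes name TAIR10 and the deposited tables hold no coordinates, so positions and sequences were read from TAIR10.1 by locus identifier. The longest annotated transcript has 12 exons in XPL1, 12 in NMT2 and 11 in NMT3, and encodes 491, 491 and 490 residues in that order. XPL1 and NMT2 are the closest pair, with 85.2% identical coding bases and 89.0% identical residues. NMT3 shares 77.1% of aligned coding bases with XPL1 and 76.3% with NMT2.

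The longest stretch that the XPL1 and NMT2 transcripts share exactly is 47 bases. It is shown because a read inside it could come from either gene, whereas a longer read cannot match both of these transcripts exactly. Only exact matches were compared, so the assignment of longer reads with mismatches allowed was not tested. No window of 50 bases of the XPL1 transcript occurs in that of NMT2, while 0.799% of windows of 36 bases and 2.91% of windows of 25 bases do. XPL1 shares no window of 25 bases with NMT3. The sources used here do not give the read length or how reads with several matches were counted. The 72 coding bases below end at an exon edge and hold 42 of the 47 shared bases. Capitals mark bases that differ from XPL1, 7 in NMT2 and 17 in NMT3. The positions on TAIR10.1, plus strand, are chr3:6156513-6156584 for XPL1, chr1:17968267-17968338 for NMT2 and chr1:27672695-27672766 for NMT3.
XPL1: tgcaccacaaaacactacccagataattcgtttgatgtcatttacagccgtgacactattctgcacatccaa
NMT2: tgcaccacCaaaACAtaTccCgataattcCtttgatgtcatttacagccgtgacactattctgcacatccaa
NMT3: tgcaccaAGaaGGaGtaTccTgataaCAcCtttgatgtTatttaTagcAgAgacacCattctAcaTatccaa

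The uORF is a feature that all 3 genes share. RefSeq annotates a uORF of 78 bases, 25 codons before the stop, in each of them. The uORF of XPL1 encodes the same residue as that of NMT2 at 23 of 25 codons, and the same residue as that of NMT3 at 18 of 25. The annotated XPL1 transcript holds it. NMT2 and NMT3 each have 2 annotated transcripts, of which 1 holds the uORF and 1 does not. The deposited FPKM are per locus, so transcripts with and without the uORF cannot be told apart, and they measure RNA, not translation.

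The 250 bases before the annotated start of XPL1 and of NMT2 are shown because these promoters belong to genes whose transcript levels lay on opposite sides of Control in both lines. They were searched on both strands for TGTCTC and TGTCGG, sequences bound by auxin response factors, and for the shared core TGTC, which overlaps with both. Neither promoter holds TGTCTC or TGTCGG, which occur in 10.9% and 4.16% of the same window of 27443 protein-coding genes. The core occurs once in XPL1, on the minus strand with its first base 186 bases before the start (in capitals), and not in NMT2. It occurs in 74.8% of all such windows. A match or its absence is a description of these letters in this window. The NMT2 window lies before the outer of its 2 annotated transcript starts, and the bases just before the inner start, at chr1:17966383, were not searched. On TAIR10.1, plus strand, the windows are chr3:6154113-6154362 for XPL1 and chr1:17965621-17965870 for NMT2.
XPL1: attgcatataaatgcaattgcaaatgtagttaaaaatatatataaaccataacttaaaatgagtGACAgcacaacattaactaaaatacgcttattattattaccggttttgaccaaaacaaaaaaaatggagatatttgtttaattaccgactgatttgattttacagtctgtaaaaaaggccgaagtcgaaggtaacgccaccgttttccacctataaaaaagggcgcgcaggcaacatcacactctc
NMT2: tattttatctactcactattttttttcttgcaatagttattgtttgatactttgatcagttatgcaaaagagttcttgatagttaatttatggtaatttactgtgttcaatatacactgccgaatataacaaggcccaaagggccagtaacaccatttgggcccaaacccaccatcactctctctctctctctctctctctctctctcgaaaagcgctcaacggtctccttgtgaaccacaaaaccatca

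XPL1 transcripts were far less abundant in both lines than in Control. XPL1 had 9.73 FPKM in potent and 9.05 FPKM in arf7, against 220 FPKM in Control. The potent and arf7 values were close to each other, with a ratio of 1.08 of potent over arf7, and Control stood apart. The level in Control was 22.6 times that in potent and 24.3 times that in arf7. In the authors' deposited table XPL1 fell in both lines, with log2 fold changes of -4.50 in potent and -4.60 in arf7, each with q = 0.00145, the lowest q that this table holds. Fewer cells of a type and less RNA per cell cannot be told apart in RNA from whole dissected zones.

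XPL1 also moved a long way down the order of all loci. It ranked at 9000 of 31124 loci in potent and at 9243 in arf7, against 834 in Control. Of the 1740 loci with at least 100 FPKM in Control, 31 had a lower ratio of potent to Control than XPL1, and 16 had a lower ratio of arf7 to Control. These positions describe the values that chose the gene.

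**Figure D1:**
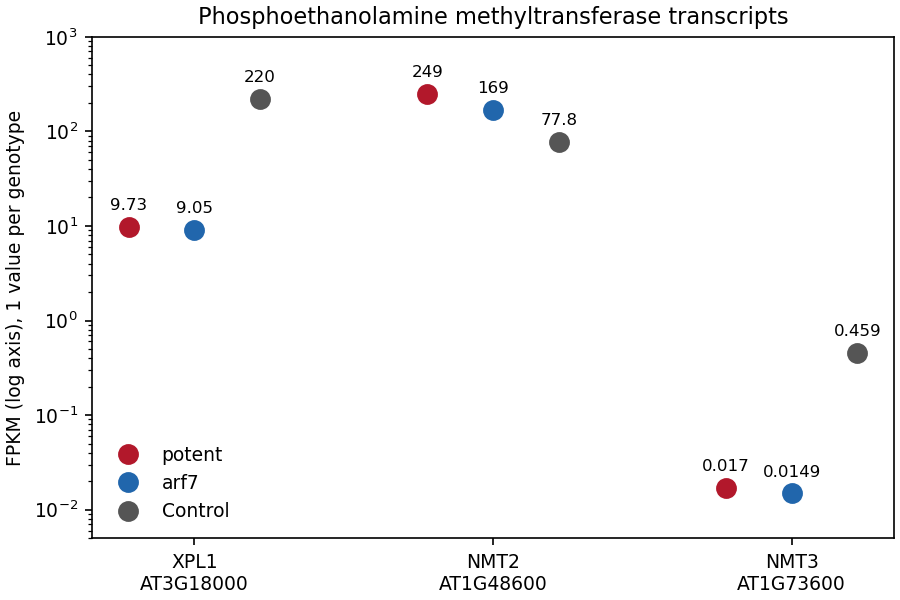
FPKM of the 3 phosphoethanolamine methyltransferase genes on a log axis, 1 point per gene and genotype, with no spread because the deposited values are 1 per genotype. XPL1 is at 9.73 in potent, 9.05 in arf7 and 220 in Control, NMT2 is highest in potent, at 249, and NMT3 is below 1 FPKM in each genotype.

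NMT2, the closest homologue of XPL1, lay on the other side of Control. It encodes an enzyme known for the later methylations, from phosphomethylethanolamine on. NMT2 had 249 FPKM in potent and 169 FPKM in arf7, against 77.8 FPKM in Control. Potent was the highest and Control the lowest, with arf7 between them. In the authors' deposited table NMT2 rose by 1.68 on the log2 scale in potent (q = 0.00145). NMT2 is not listed in arf7, where its level was 2.17 times that in Control, or 1.12 on the log2 scale. The smallest rise that the authors' deposited table lists in arf7 is 1.18, so a ratio of this size has no counterpart among the listed rises. The level in potent was 1.48 times that in arf7, a pair that the authors' deposited table does not compare. NMT2 ranked at 663 of all loci in potent and at 951 in arf7, against 2117 in Control.

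NMT3 was barely detected. It had 0.0170 FPKM in potent and 0.0149 FPKM in arf7, against 0.459 FPKM in Control. The potent and arf7 values were lower than that of Control, and NMT3 is listed in neither line. Ratios between values this low depend on few fragments, and their number is unknown.

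Of the 3 genes, the authors' deposited table thus lists 1 as higher and 1 as lower in potent, where it lists 3.44% of loci above 0 in potent or Control as higher and 3.92% as lower. In arf7 it lists none of the 3 as higher and 1 as lower, where 2.02% of loci are listed as higher and 2.55% as lower. The genes were chosen on these contrasts, so nothing is read from these counts. The median locus with at least 5 FPKM in every genotype had a log2 ratio to Control of -0.05 in potent and of -0.04 in arf7, small beside the differences of XPL1 and NMT2.

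**Figure D2:**
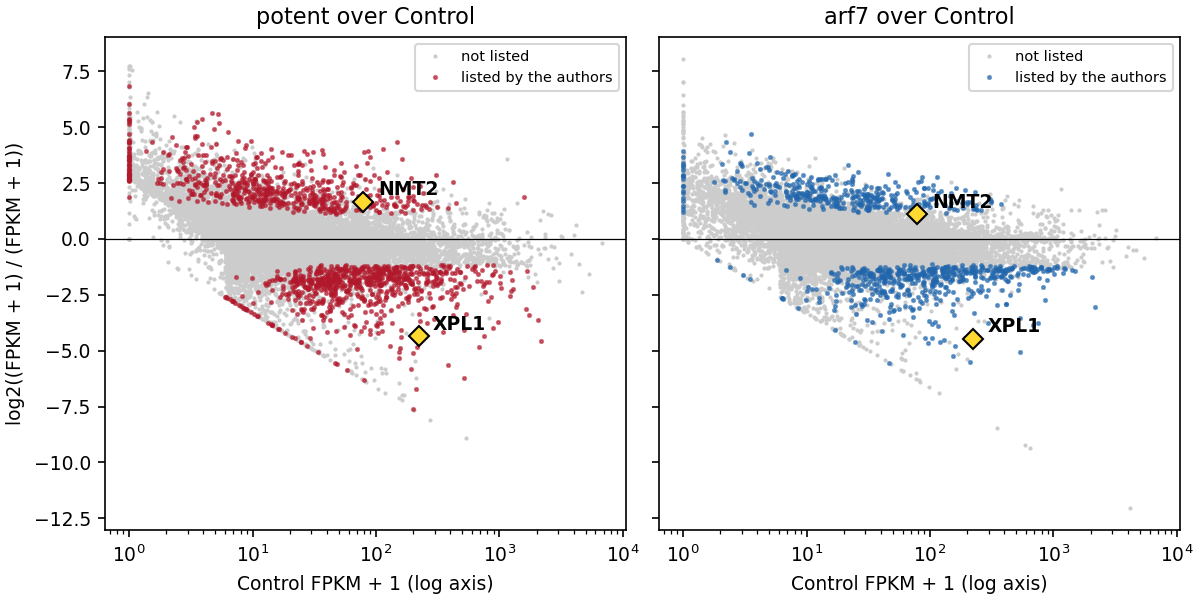
Log2 ratio of FPKM + 1 in potent (left) and arf7 (right) over Control against Control FPKM + 1 on a log axis, for loci with at least 5 FPKM in some genotype; coloured points are loci that the authors list and diamonds are XPL1 and NMT2. XPL1 lies at -4.36 in potent and -4.46 in arf7, below nearly all loci of similar level, and NMT2 lies at 1.67 and 1.11. Both panels use the same Control values.

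The make-up of the family differed more than its sum. FPKM are scaled by transcript length, so the levels of the 3 genes can be added. The members need not share every step, so the sum is a sum of transcripts and not a measure of the first methylation. The sum was 259 FPKM in potent and 178 FPKM in arf7, against 298 FPKM in Control. The sum in potent was 0.869 of that in Control and the sum in arf7 was 0.597 of it. XPL1 held 3.76% of the sum in potent and 5.08% in arf7, against 73.8% in Control. NMT2 held 96.2% in potent and 94.9% in arf7, against 26.1% in Control. NMT2 transcripts were 25.6 times as abundant as those of XPL1 in potent and 18.7 times in arf7, whereas XPL1 transcripts were 2.83 times as abundant as those of NMT2 in Control.

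As differences in FPKM, the lower level of XPL1 and the higher level of NMT2 were of similar size in potent and less so in arf7. As ratios they were far apart. XPL1 in Control was 22.6 times its level in potent, and NMT2 in potent was 3.21 times its level in Control. XPL1 was lower by 210 FPKM in potent and by 211 FPKM in arf7 than in Control. NMT2 was higher by 172 FPKM in potent and by 91.3 FPKM in arf7 than in Control. In FPKM, the difference of NMT2 from Control was thus 81.6% as large as that of XPL1 in potent and 43.2% in arf7. Whether NMT2 stands in for XPL1 was not tested. Neither difference between potent and arf7 could be tested without values per sample.

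**Figure D3:**
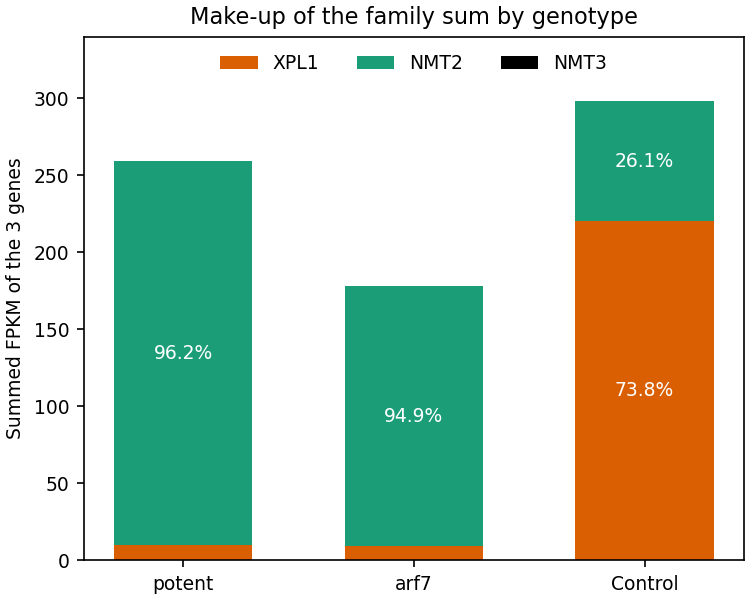
Stacked FPKM of XPL1, NMT2 and NMT3 in potent, arf7 and Control, with the share of each gene that is large enough to label. NMT2 makes up 96.2% of the bar in potent and 94.9% in arf7, XPL1 makes up 73.8% of the bar in Control, and NMT3 is too low to see.

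The genes around this step were described next, in 8 lists of 56 genes, of which 52 are in the expression table and 51 are above 0 in some genotype. In potent, 7 of the 51 fell and none rose by the authors' listing (13.7% listed as lower). In arf7, 4 of the 51 fell and none rose (7.84%), and these 4 also fell in potent. Most of these genes are abundant. Those with at least 5 FPKM in the line or in Control were therefore also set beside all loci of that level. These were 40 genes for potent and 42 for arf7. The floor of 5 FPKM does not match the genes and the loci for levels above it. Of the 40, 17.5% are listed as lower in potent, where 5.65% of loci with at least 5 FPKM in potent or Control are listed as lower and 4.58% as higher. In arf7, 9.52% of the 42 are listed as lower, where 3.9% of such loci are listed as lower and 2.78% as higher. By a plain difference of at least 2-fold, 12 of the 40 genes (30.0%) were lower and 3 (7.5%) higher in potent, where 19.7% of all loci of that level were lower and 22.5% higher. In arf7, 8 of the 42 (19.0%) were lower and 3 (7.14%) higher, where 16.3% of all loci of that level were lower and 17.5% higher. The median log2 ratio of the 51 genes, on log2(FPKM + 1), was -0.36 in potent and -0.13 in arf7, and that of all 22315 loci above 0 was 0 in both. The 2 comparisons share the Control samples, so their values are not independent.

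The supply of phosphoethanolamine comes from serine decarboxylation and from phosphorylation of ethanolamine. None of the 4 genes of this list in the table is listed in either line. SDC (AT1G43710), the serine decarboxylase gene, had 68.7 FPKM in potent and 93.2 FPKM in arf7, against 110 FPKM in Control. CEK4 (AT2G26830), an ethanolamine kinase gene, had 13.1 FPKM in potent and 15.3 FPKM in arf7, against 16.2 FPKM in Control. These 2 genes were within 1.60 times of Control in both lines. CEK3 (AT4G09760), of the choline kinase family, had 11.6 FPKM in potent and 8.67 FPKM in arf7, against 1.23 FPKM in Control, and CEK2 (AT1G74320) was lower in both lines than in Control.

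Downstream, the phospho-bases are activated with CTP and joined to diacylglycerol. PECT1 (AT2G38670), the CTP:phosphoethanolamine transferase, which draws on the same substrate as XPL1 to make phosphatidylethanolamine, fell in both lines. It had 18.8 FPKM in potent and 19.0 FPKM in arf7, against 66.0 FPKM in Control. The potent and arf7 values were close and lay well below Control, and the authors' deposited table gives log2 fold changes of -1.81 in potent and -1.80 in arf7, each with q = 0.00145. CCT1 (AT2G32260), the CTP:phosphocholine transferase that uses the product of the methyltransferases, is not listed and had 39.1 FPKM in potent and 40.2 FPKM in arf7, against 45.0 FPKM in Control. AAPT2 (AT3G25585), which joins the activated base to diacylglycerol, had 60.2 FPKM in potent and 69.9 FPKM in arf7, against 116 FPKM in Control, and CCT2 (AT4G15130) had 4.61, 8.43 and 7.73 FPKM in the same order. Neither is listed.

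Genes of other routes to the same phospholipids were not listed. PLMT (AT1G80860), which methylates the lipid-bound base, had 18.0 FPKM in potent and 19.6 FPKM in arf7, against 21.5 FPKM in Control. PSS1 (AT1G15110), the phosphatidylserine synthase gene, had 24.1 FPKM in potent and 38.7 FPKM in arf7, against 31.0 FPKM in Control. PSD2 (AT5G57190), a phosphatidylserine decarboxylase gene, had 3.23 FPKM in potent and 5.53 FPKM in arf7, against 0.00436 FPKM in Control, and PSD1 (AT4G16700) stayed at or below 1.93 FPKM.

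The methyl donor cycle makes S-adenosylmethionine and removes the S-adenosylhomocysteine that the reaction leaves behind. In potent, 2 of its 13 genes fell, and in arf7 none is listed. Among loci above 0 in the line or in Control, 3.92% are listed as lower in potent and 2.55% in arf7. With at least 5 FPKM in the line or in Control these shares are 5.65% and 3.9%. MAT4 (AT3G17390), an S-adenosylmethionine synthetase gene, had 224 FPKM in potent and 412 FPKM in arf7, against 1024 FPKM in Control, with a log2 fold change of -2.19 in potent (q = 0.00145) in the authors' deposited table. SAHH2 (AT3G23810), an S-adenosylhomocysteine hydrolase gene, had 280 FPKM in potent and 491 FPKM in arf7, against 724 FPKM in Control, with -1.37 in potent (q = 0.00382) in the authors' deposited table.

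Other abundant genes of the cycle are not listed. SAHH1 (AT4G13940) had 1744 FPKM in potent and 2290 FPKM in arf7, against 2314 FPKM in Control. SAM1 (AT1G02500) had 1575 FPKM in potent and 1910 FPKM in arf7, against 1185 FPKM in Control. MAT3 (AT2G36880), with 1211 FPKM in potent and 1521 FPKM in arf7, against 1010 FPKM in Control, likewise lay above Control, and the methionine synthase gene MS1 (AT5G17920) had 1331 FPKM in potent and 1628 FPKM in arf7, against 2134 FPKM in Control. The S-adenosylmethionine synthetase genes thus lay on both sides of Control, with the summed level of the 13 genes at 8478 FPKM in potent and 10768 FPKM in arf7, against 10769 FPKM in Control. Reads of close paralogues among these genes may have been split between them.

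All 5 genes that edit the acyl chains or head group of phosphatidylcholine had lower values in both lines than in Control, and 2 of them fell in both. Of all loci with at least 5 FPKM in some genotype, 49.6% lay below Control in potent and 50.5% in arf7. Of loci with at least 5 FPKM in the line or in Control, 5.65% are listed as lower in potent and 3.9% in arf7. FAD3 (AT2G29980), which desaturates linoleate bound to phosphatidylcholine, had 48.9 FPKM in potent and 79.6 FPKM in arf7, against 268 FPKM in Control. The authors' deposited table gives FAD3 log2 fold changes of -2.45 in potent and -1.75 in arf7, each with q = 0.00145. LPCAT2 (AT1G63050), which reacylates lysophosphatidylcholine, had 3.51 FPKM in potent and 8.00 FPKM in arf7, against 31.9 FPKM in Control, with -3.18 (q = 0.00145) and -1.99 (q = 0.00382) in the authors' deposited table. FAD2 (AT3G12120), LPCAT1 (AT1G12640) and ROD1 (AT3G15820) are not listed. FAD2, the oleate desaturase, had 254 FPKM in potent and 287 FPKM in arf7, against 580 FPKM in Control. LPCAT1 had 49.1 FPKM in potent and 51.8 FPKM in arf7, against 69.7 FPKM in Control, and ROD1, the head group exchange enzyme, had 10.0 FPKM in potent and 5.82 FPKM in arf7, against 21.1 FPKM in Control. The list median was -1.19 in potent and -1.70 in arf7.

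Of 12 genes above 0 that break down phospholipids or free their head groups, GDPD2 (AT5G41080) fell in both lines and no other is listed. Among all loci above 0 in the line or in Control, 3.92% are listed as lower in potent and 2.55% in arf7. GDPD2, a glycerophosphodiester phosphodiesterase gene, had 17.7 FPKM in potent and 15.0 FPKM in arf7, against 149 FPKM in Control. The authors' deposited table gives it log2 fold changes of -3.07 in potent and -3.31 in arf7, each with q = 0.00145. NPC3 (AT3G03520), of the phospholipase C family, had 79.6 FPKM in potent and 86.1 FPKM in arf7, against 39.6 FPKM in Control. GDPD1 (AT3G02040) had 40.0 FPKM in potent and 16.0 FPKM in arf7, against 21.1 FPKM in Control, and NPC6 (AT3G48610) had 14.9, 16.9 and 19.5 FPKM in the same order. NPC1 (AT1G07230) had 16.6 FPKM in potent and 9.22 FPKM in arf7, against 6.27 FPKM in Control. PEPC1 (AT1G17710), a phosphatase of phosphoethanolamine and phosphocholine, is listed at 0 in arf7 and Control and had 0.111 FPKM in potent. PS2 (AT1G73010), of the same list, had 2.55 FPKM in potent and 12.3 FPKM in arf7, against 12.5 FPKM in Control. The list median was -0.0019 in potent and -0.09 in arf7.

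None of the 6 genes of galactolipid and sulfolipid synthesis, lipids that replace phospholipids when phosphate is scarce, is listed, and the list median was -0.22 in potent and 0.25 in arf7. In potent, 3 of the 6 lay above Control and 3 below it, so the sign of this median turns with the removal of 1 low gene. Over the genes above 0 in all genotypes, which leaves out MGD3 (AT2G11810), listed at 0 in potent, it was 0.23. SQD2 (AT5G01220), the most abundant of them, had 11.6 FPKM in potent and 30.7 FPKM in arf7, against 24.8 FPKM in Control. SQD1 (AT4G33030) had 9.16 FPKM in potent and 9.38 FPKM in arf7, against 7.66 FPKM in Control, DGD2 (AT4G00550) had 7.87, 12.1 and 6.23 FPKM in the same order, and MGD2 (AT5G20410) had 0.656, 5.38 and 4.42 FPKM.

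Among loci with at least 5 FPKM in potent or Control, 5.65% are listed as lower in potent. Of 3 genes of choline transport and oxidation, ALDH10A8 (AT1G74920) fell in potent. This gene of the betaine aldehyde dehydrogenase family had 60.0 FPKM in potent and 86.9 FPKM in arf7, against 171 FPKM in Control, with a log2 fold change of -1.51 in potent (q = 0.00145) in the authors' deposited table. Its homologue ALDH10A9 (AT3G48170) had 51.9 FPKM in potent and 54.9 FPKM in arf7, against 60.2 FPKM in Control. CTL1 (AT3G15380), a choline transporter-like gene, had 0.680 FPKM in potent and 2.54 FPKM in arf7, against 6.69 FPKM in Control, without being listed.

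**Figure D4:**
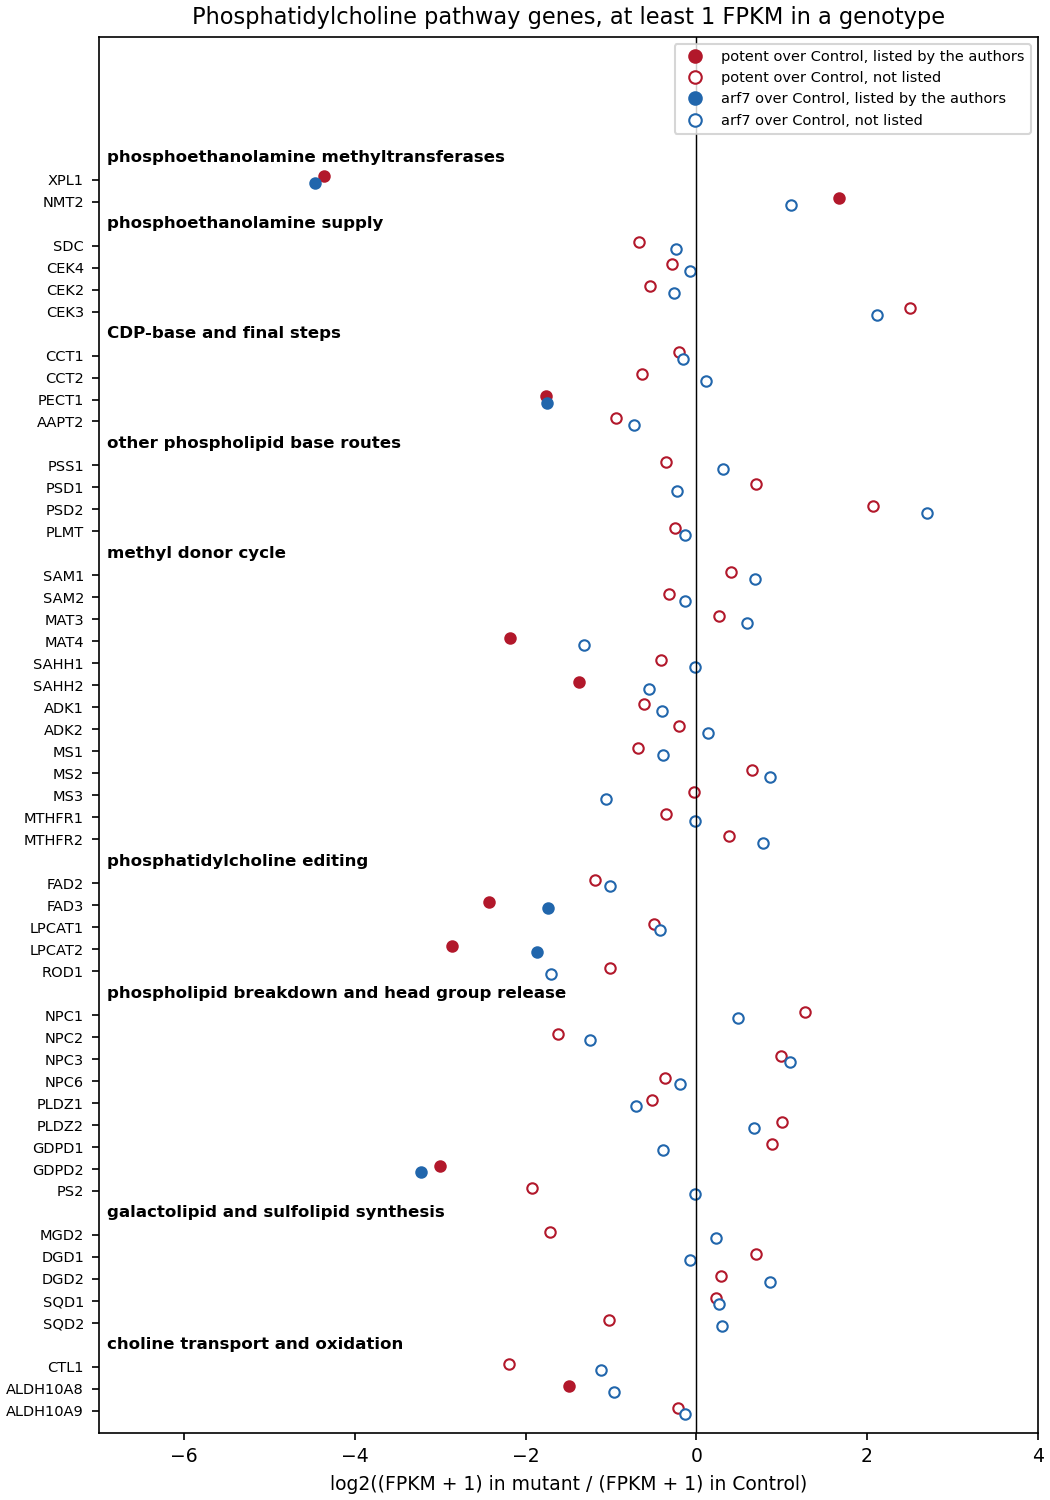
Log2((FPKM + 1) in the line / (FPKM + 1) in Control) for genes of the phosphatidylcholine pathway lists with at least 1 FPKM in some genotype, in red for potent and blue for arf7; filled points are listed by the authors and open points are not. XPL1, PECT1, FAD3, LPCAT2 and GDPD2 are the genes filled on the left in both colours, and NMT2 in potent is the only filled point right of 0.

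The loci with the pattern most like that of each gene were found by the Euclidean distance between pairs of log2((FPKM + 1)/(FPKM + 1)) ratios, potent over Control and arf7 over Control, among 13513 loci with at least 5 FPKM in some genotype. The 10 nearest to XPL1, at distances of 0.16 to 0.45, were MIR172a, AT5G06565, AT1G06673, PAR1, MIR172b, AT5G51500, AT1G17285, AT5G10400, AT5G51520 and HTB2. Of these, 5 are listed at 0 in both lines, where the ratio is set by the pseudocount, and 3 are listed by the authors as lower in both: AT1G17285 and the histone genes AT5G10400 and HTB2 (AT5G22880). HTB2 had 5.83 FPKM in potent and 3.74 FPKM in arf7, against 102 FPKM in Control. AT5G10400 had 6.67 FPKM in potent and 4.87 FPKM in arf7, against 159 FPKM in Control. Histone genes share reads with near-identical copies and are uncertain.

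The 5 nearest to NMT2, at distances of 0.04 to 0.06, were AT5G62710, AT5G07105, SHL1, CHI and SULTR3;2. Of these, SHL1 (AT4G39100), a gene for a PHD finger protein, rose in potent and had 871 FPKM in potent and 616 FPKM in arf7, against 275 FPKM in Control. The 5 nearest to NMT3 were AT5G10200, AT5G02530, FASS, PGM2 and AT3G27340, but the ratio of NMT3 on this scale is set mostly by the pseudocount.

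Markers of other cell types moved beside these genes, and their part in the differences was not tested. The summed level of 6 root hair markers was 2500 FPKM in potent and 1525 FPKM in arf7, against 461 FPKM in Control, and 5 of the 6 rose in each line. Of loci with at least 5 FPKM in the line or in Control, 4.58% are listed as higher in potent and 2.78% in arf7. The largest part of the potent sum was PRP3, with 1120 FPKM. COBL9 is listed in neither line and had 57.6 FPKM in potent and 96.5 FPKM in arf7, against 73.3 FPKM in Control. That of 5 xylem markers was 439 FPKM in potent and 433 FPKM in arf7, against 92.6 FPKM in Control. The endodermis marker CASP1 had 4255 FPKM in potent and 3353 FPKM in arf7, against 1375 FPKM in Control, and is listed in neither line. CASP4 had 861, 995 and 313 FPKM in the same order, is not listed in potent and rose in arf7. The endodermis regulators SCR, with 34.8, 21.2 and 25.5 FPKM, and MYB36, with 73.0, 95.4 and 83.1 FPKM, lay within 1.5 times of Control in both lines. For 3 mature stele markers the sums were 58.9, 50.6 and 3.97 FPKM, for 3 phloem markers 35.7, 46.8 and 14.5 FPKM, and for 3 green shoot markers 66.9, 32.7 and 13.7 FPKM. Most of the mature stele sum was PHO1, with 52.4, 43.5 and 3.72 FPKM. Most of the green shoot sum was PSBO1, with 61.2, 29.4 and 13.3 FPKM. The other mature stele and green shoot markers lay above Control in both lines but at or below 5.66 FPKM. The 2 non-hair epidermis markers differed from each other: WER had 0.438 FPKM in potent and 0.648 FPKM in arf7, against 12.8 FPKM in Control, and GL2 had 64.1, 60.1 and 46.7 FPKM in the same order, with neither listed. The 4 markers of dividing cells summed to 55.8 FPKM in potent and 9.37 FPKM in arf7, against 24.9 FPKM in Control, with KNOLLE listed at 0 in arf7. The largest part of each sum was PCNA1, with 25.4, 8.55 and 19.6 FPKM in the same order. CDKB2;1, with 17.8, 0.783 and 2.39 FPKM, rose in potent and is not listed in arf7. The other markers of this set are listed in neither line. The root cap markers SMB, BRN1 and FEZ and the meristem genes PLT1 and PLT2 are listed at 0 in every genotype, and WOX5 had 8.18 FPKM in potent and 0.767 FPKM in arf7, against 0.130 FPKM in Control. ARF7 had 9.35 FPKM in potent and 2.64 FPKM in arf7, against 12.0 FPKM in Control, and IAA18 had 21.8 FPKM in potent and 19.1 FPKM in arf7, against 10.6 FPKM in Control. Neither gene is listed in either line.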

How the data were processed

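Total RNA of 9 samples, 3 per group, had been made into libraries with a published protocol for full-length cDNA from small inputs, per the labels' protocols. Per the submitters' processing notes, the tools were Cuffdiff, Cufflinks, TopHat, TopHat2, Bowtie and Bowtie2 and the build was TAIR10, with no version, role or order stated. The authors had combined the 3 samples of a genotype into 1 value per locus before they deposited the table. The deposited values were taken as FPKM, scaled by the authors for transcript length and mapped fragments, although the header names no unit, from the tools named and from sums of 879820 in potent, 850089 in arf7 and 905924 in Control. FPKM share a total, so a few abundant transcripts can lower all others: the 100 highest loci took 23.2%, 22.9% and 20.6% of the sum in that order. A 0 can be a failed estimate. The authors' deposited comparison table gives 2577 log2 fold changes of a line over Control, each with a q-value, per the file headers; its numeric values equal the log2 ratio of the FPKM within 0.0001. The sources used here do not give its test or its rule for listing.

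No test or interval could be computed here, since there is no value per sample, and the depth is unknown. "Rose" and "fell" are used only of genes in the authors' deposited table, and absence from it does not show that a level was the same. Ratios use log2(FPKM + 1) unless said otherwise. Genes named are the 3 chosen, list members that the authors list, up to 4 abundant ones per list, genes next to the methyltransferase step, and the 10 or 5 nearest loci. The genes, lists and rules were chosen with earlier results of these data known. Symbols and gene models are from RefSeq TAIR10.1, with some common symbols used in their place. Coding and uORF sequences were aligned globally with Biopython 1.88, and identity counts aligned positions. CEK1, AAPT1, PSD3 and MGD1 were not analysed here. Computation used Python 3.11.15, pandas 2.3.3 and numpy 2.4.6; the ratio and the distance search were tested on simulated data. The alternatives were pseudocounts of 0.1 and 5, rescaling to the same sum or to the median ratio, filters on low values, and a 2-fold rule in place of the authors' listing.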

Additional observations from a re-analysis of the deposited data

How the results depend on the processing

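XPL1 stayed lower and NMT2 higher in both lines under pseudocounts of 0.1 and 5, rescaling to the same sum and rescaling by the median ratio. The log2 ratio of XPL1 ranged from -4.49 to -3.93 in potent and from -4.59 to -4.00 in arf7, and that of NMT2 from 1.62 to 1.72 and from 1.07 to 1.20. NMT3 moved to -2.26 in potent and -2.28 in arf7 with a pseudocount of 0.1. The log2 ratio of the family sum ranged from -0.20 to -0.15 in potent and from -0.74 to -0.65 in arf7. Leaving XPL1 out of the sum put NMT2 at 99.4% of it in Control. With a change of at least 2-fold and at least 5 FPKM in place of the authors' listing, 3 pathway genes were higher and 12 lower in potent, and 3 were higher and 8 lower in arf7. No list median moved by more than 1.5 times under any of the 96 alternatives computed for them, but 8 of these turned the sign of a median. Galactolipid and sulfolipid synthesis in potent went to 0.23 with members of at least 1 FPKM or above 0 in all genotypes, and to 0.000512 with a pseudocount of 5. Phospholipid breakdown in potent went to 0.27 with a pseudocount of 0.1 and to 0.000214 and 0.000807 with rescaling by the sum and by the median ratio. The methyl donor cycle in arf7 went to 0.08 and 0.03 with the same rescalings. The nearest loci depend on the settings: with a pseudocount of 0.1, 2 of the 10 nearest to XPL1, 1 of the 5 nearest to NMT2 and 0 of the 5 nearest to NMT3 were shared with those named, and with a minimum of 20 FPKM, 6 of the 10 for XPL1 and 2 of the 5 for NMT2. With no spread between samples, a value was taken as moved beyond 1.5 times. No paired analysis was possible because the table holds 1 value per genotype, and for the same reason no sample could be left out.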

Other observations

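The 5 neighbouring genes described here do not overlap the methyltransferase genes in the TAIR10.1 annotation, and none of the 5 is listed by the authors. Only ATHAL3B and AT3G17980 are above 0, and the gene before NMT3 is not among the 5. ATHAL3B (AT1G48605), which follows NMT2 on the opposite strand, had 5.03 FPKM in potent and 2.84 FPKM in arf7, against 11.6 FPKM in Control, so it lay below Control where NMT2 lay above it. AT3G17980, which precedes XPL1, had 11.3 FPKM in potent and 3.28 FPKM in arf7, against 4.20 FPKM in Control. AT3G18010, AT1G48590 and AT1G73603, the neighbours on the other side of XPL1, before NMT2 and after NMT3, are listed at 0 in every genotype.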
